A study of Homo sapiens with 11 samples.

Results

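The snoRNA host genes described here are 10 genes with long noncoding transcripts: GAS5, SNHG1, SNHG3, SNHG5, SNHG6, SNHG7, SNHG8, SNHG12, SNHG15 and ZFAS1. They were chosen by name from the 57773 genes of the expression table, with earlier results of these data known, and all 10 were found there. All 10 also had entries in the splicing tables. RNA-Seq had been performed on HCC78, a lung adenocarcinoma cell line that itself carries the U2AF1 S34F mutation. U2AF1 is the splicing factor that contacts the AG dinucleotide at the 3' end of introns, and S34F is a recurrent mutation in it. HCC78 cells were transduced with a tet-inducible lentiviral vector (pTRIPz) for wild-type or S34F U2AF1 with FLAG and HA tags, stable subclones were generated, and the lines were grown with or without doxycycline. The libraries were WT dox+ (2), S34F dox+ (2), WT dox- (2), S34F dox- (1) and the untransduced parental line (2). All of them therefore hold endogenous S34F transcript. According to the labels, S34F made up 32% of U2AF1 mRNA in both parental libraries, 33% in both WT dox- libraries, 28% in S34F dox-, 62% and 65% in S34F dox+, and 12% and 14% in WT dox+. How many subclones stand behind each line, and whether replicates were separate cultures, is not given, so p-values here measure the spread between these libraries, which may be technical.

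Small nucleolar RNAs (snoRNAs) guide the chemical modification of ribosomal and spliceosomal RNA. C/D box snoRNAs direct methylation of ribose and H/ACA box snoRNAs direct the conversion of uridine to pseudouridine. Most human snoRNAs lie in introns of host genes and are trimmed out of the excised intron after splicing. The spliced exons of the hosts described here carry only short reading frames, and many of these RNAs are degraded by nonsense-mediated decay when they are translated, so that their level reflects both transcription and decay. Transcripts of such hosts often begin with a run of pyrimidines, as do those of ribosomal proteins.

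Of the 36 snoRNAs listed for these hosts, 25 were of the C/D class and 11 of the H/ACA class, and RefSeq placed 34 of the 36 inside the named host. GAS5 (10 snoRNAs), SNHG1 (8), ZFAS1 (3), SNHG5 (2) and SNHG6 (1) were listed with C/D snoRNAs only. SNHG3, SNHG7, SNHG8 and SNHG15 were listed with H/ACA snoRNAs only, and SNHG12 with 3 H/ACA snoRNAs and 1 C/D snoRNA. Start-site windows were taken from RefSeq (GRCh38.p14) for 8 of the 10 genes. The windows are shown because the hosts differ in what lies before the start. Each runs from 40 bases before the annotated start to 20 bases from it, 5' to 3' in the direction of the transcript. Capitals mark TATAA, the core of the TATA box. The search for TATAA, made after the sequences were seen, covered this strand between -40 and -20 only.
SNHG7: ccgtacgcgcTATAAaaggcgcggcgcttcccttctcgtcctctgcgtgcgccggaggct
SNHG8: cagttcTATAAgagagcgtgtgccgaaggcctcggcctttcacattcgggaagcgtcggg
SNHG12: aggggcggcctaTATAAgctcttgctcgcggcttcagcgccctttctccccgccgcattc
SNHG5: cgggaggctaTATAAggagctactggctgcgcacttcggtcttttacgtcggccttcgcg
ZFAS1: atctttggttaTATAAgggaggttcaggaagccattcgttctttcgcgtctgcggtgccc
SNHG3: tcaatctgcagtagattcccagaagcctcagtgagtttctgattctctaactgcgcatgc
SNHG1: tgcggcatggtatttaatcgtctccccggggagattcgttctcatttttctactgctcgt
GAS5: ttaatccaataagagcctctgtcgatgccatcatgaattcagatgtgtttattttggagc

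These windows are chr9:136728165-136728224 (- strand) for SNHG7, chr4:118278722-118278781 (+) for SNHG8, chr1:28581854-28581913 (-) for SNHG12, chr6:85678714-85678773 (-) for SNHG5, chr20:49278602-49278661 (+) for ZFAS1, chr1:28505903-28505962 (+) for SNHG3, chr11:62855866-62855925 (-) for SNHG1 and chr1:173869026-173869085 (-) for GAS5. TATAA was present in 5 of the 8 windows and in 1372 of 35116 RefSeq promoters (3.91%). It began 30 bases before the start in SNHG5 and SNHG7, 34 before it in SNHG8, 28 in SNHG12 and 29 in ZFAS1. Both classes of host were among the 5. These are matches of letters only, and the start used by HCC78 cells was not measured.

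The expression table gives FPKM and TPM and no counts, so depth is unknown and no counting error can be given. Between 13661 and 14688 genes reached 1 FPKM in the 5 uninduced and parental libraries, 16053 and 17716 in WT dox+. S34F dox+ replicate 1 had 15736 such genes and S34F dox+ replicate 2, which stands apart, had 20896. U2AF1 itself was at 103 to 115 FPKM without induction, at 278 and 299 in the WT dox+ libraries, and at 164 and 223 with S34F induced. Epithelial markers were high in every library (KRT7 at 2873 FPKM or more, KRT19 at 1435, KRT18 at 1046 and EPCAM at 407 or more). Markers of lung adenocarcinoma were mixed. NKX2-1 was at 49.1 FPKM or more, SLC34A2 at 40.1 or more and ROS1 at 8.63 or more. NAPSA was only at 1.73 to 9.97 FPKM and SFTPB at 0.25 to 2.05, and the surfactant gene SFTPC did not exceed 0.69 FPKM. Of 7 markers of fibroblasts, leukocytes and endothelium, COL1A1 was highest, at up to 7.0 FPKM. All 10 host genes passed the minimum mean of 1 FPKM, and together they made up 0.347% to 0.61% of TPM in 8 libraries and 1.84% in parental replicate 1. In bulk RNA, fewer expressing cells and less RNA per cell cannot be told apart.

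By their median over the 9 libraries, the hosts fell into an upper set with the H/ACA snoRNAs and a lower set with the C/D snoRNAs. The order was SNHG15 at 1517 FPKM, SNHG3 at 1313, SNHG12 at 998, SNHG8 at 957, SNHG7 at 374, GAS5 at 147, SNHG5 at 116, ZFAS1 at 98.1, SNHG6 at 78.8 and SNHG1 at 73.7. The ranges of neighbours in this order overlapped in every case. Medians of the 5 H/ACA hosts spanned 374 to 1517 FPKM and those of the 5 C/D hosts 73.7 to 147. This split by class was noticed in these values and carries no test.

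Apart from SNHG1, the C/D hosts varied little. GAS5, an RNA named for its accumulation in growth-arrested cells, stood at 142 and 172 FPKM in the parental line, 125 and 147 in WT dox-, 149 in S34F dox-, 142 and 119 in WT dox+, then 148 and 148 in S34F dox+. SNHG5 stood at 116 and 143 FPKM in the parental line, 99.2 and 143 in WT dox-, 135 in S34F dox-, 102 and 120.0 in WT dox+, then 103 and 105 in S34F dox+. Neither gene left a 1.45-fold range over all 9 libraries. ZFAS1, an RNA antisense to the start of ZNFX1 (whether strand was used in quantification is not given), was at 98.6 and 113 FPKM in the parental line, 80.7 and 98.1 in WT dox-, 102 in S34F dox-, 96.9 and 93.7 in WT dox+, then 124 and 94.6 in S34F dox+. SNHG6 was at 76.2 and 83.0 FPKM in the parental line, 92.8 and 70.1 in WT dox-, 88.1 in S34F dox-, 68.7 and 78.8 in WT dox+, then 92.2 and 62.7 in S34F dox+. For SNHG6 the S34F dox+ replicates bracketed nearly all other libraries, so that the groups overlapped throughout.

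SNHG1, the host of the SNORD22 and SNORD25 to SNORD31 family, was at 14655 FPKM in parental replicate 1 and at 78.8 in parental replicate 2. It was at 60.5 and 78.6 FPKM in WT dox-, 63.4 in S34F dox-, 74.6 and 73.7 in WT dox+, then 55.4 and 71.2 in S34F dox+. The other 8 libraries thus lay between 55.4 and 78.8, and the gap to the single high library was 184-fold on FPKM + 1. Among the 2317 genes that averaged 50 FPKM or more, SNHG1 was 1 of 2 that were at least 10-fold above all other libraries in parental replicate 1. The other of these was annotated as a snoRNA, and no such gene was seen in the remaining 8 libraries.

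**Figure D1:**
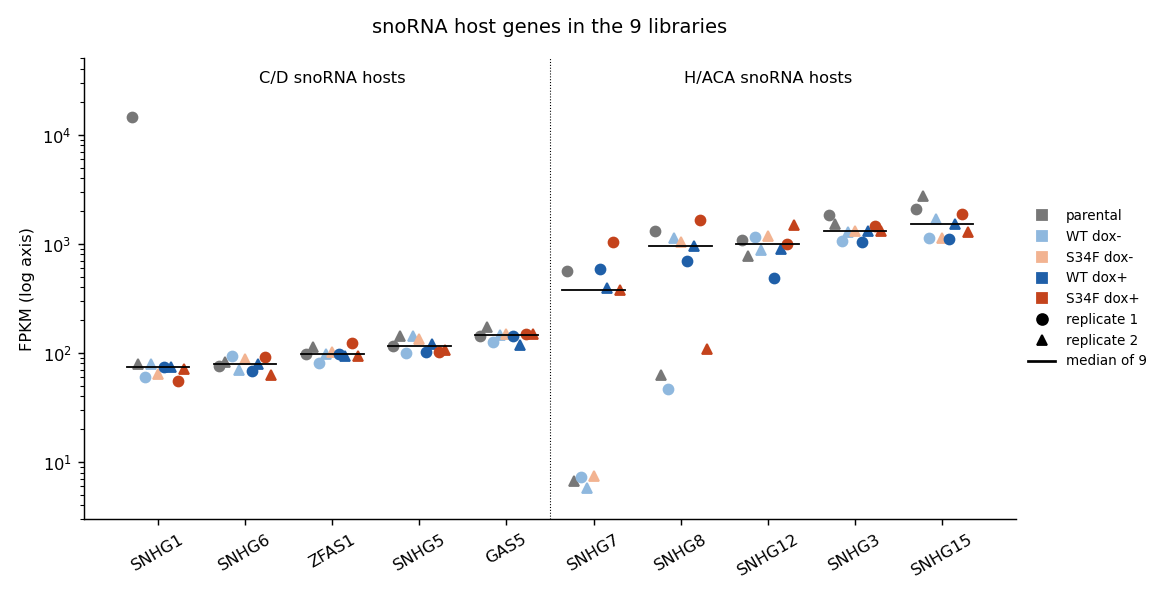
FPKM of the 10 host genes (log axis) in each of the 9 libraries, with color for the group, circles for replicate 1, triangles for replicate 2 and a line at the median. The C/D hosts lie in a narrow band apart from SNHG1 in parental replicate 1, and SNHG7 and SNHG8 each take an upper and a lower level.

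Among the H/ACA hosts, SNHG3 and SNHG15 were high in every library. SNHG3, the host of SNORA73A and SNORA73B, was at 1836 and 1526 FPKM in the parental line, 1071 and 1289 in WT dox-, 1323 in S34F dox-, 1043 and 1308 in WT dox+, then 1461 and 1313 in S34F dox+. SNHG15, the host of SNORA9, was at 2095 and 2767 FPKM in the parental line, 1134 and 1675 in WT dox-, 1130.3 in S34F dox-, 1113 and 1517 in WT dox+, then 1867 and 1291 in S34F dox+. In both genes the parental libraries were the highest of all. SNHG12 was at 1094 and 765 FPKM in the parental line, 1156 and 874 in WT dox-, 1173 in S34F dox-, 481 and 904 in WT dox+, then 998 and 1501 in S34F dox+. Its lowest and highest library were thus a WT dox+ and an S34F dox+ library, 3.12-fold apart.

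SNHG7 and SNHG8 each had an upper and a lower level with nothing between. SNHG7 was at 564 and 6.73 FPKM in the parental line, 7.25 and 5.76 in WT dox-, 7.41 in S34F dox-, 583 and 394 in WT dox+, then 1048 and 374 in S34F dox+. All 4 dox+ libraries and 1 parental library were at the upper level, and the gap between the levels was 44.6-fold on FPKM + 1. SNHG8 was at 1310 and 62.9 FPKM in the parental line, 47.1 and 1137 in WT dox-, 1035 in S34F dox-, 689 and 957 in WT dox+, then 1639 and 109 in S34F dox+. Its lower level was seen in 1 replicate of each of 3 groups, with a gap of 6.25-fold. Such a split, with a gap of at least 5-fold and 2 to 7 libraries on each side, was seen in 27 of these 2317 well expressed genes (1.17%), of which 18 were among the 58 snoRNA genes at that level and 1 among the 2150 protein-coding genes.

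Replicates of a group were at least 10-fold apart on FPKM + 1 in 3 of the 10 hosts (SNHG1, SNHG7 and SNHG8), against 235 of the 15179 genes tested (1.55%). The other 7 hosts stayed within 1.88-fold between replicates. By annotated type, 74 of 120 snoRNA genes (61.7%) and 8 of 11993 protein-coding genes (0.0667%) were that far apart. None of 12 other noncoding snoRNA hosts and none of 44 protein-coding snoRNA hosts was. These gaps lay within the parental line for SNHG1 and SNHG7, and within the parental line, WT dox- and S34F dox+ for SNHG8, so that the differences of SNHG8, and those of SNHG1 and SNHG7 against the parental line, move with single libraries.

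Most of the snoRNAs themselves had no entry that could be matched, and nearly all of the matched entries were at 0. Of the 36 snoRNAs of these hosts, 10 had an entry that could be matched by identifier inside the host, and only SNORA73B, in SNHG3, was above 0 FPKM, at 10047 to 16469 in the 9 libraries. An entry at 0 may be a failed estimate for so short an RNA and was not read as absence.

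The reads behind the splicing events gave a further value for the same genes. SNHG15 had at most 204 reads in any event in WT dox+ at a mean of 1315 FPKM, and SNHG8 had 183 reads at 823 FPKM. SNHG7 had 132 reads at 489 FPKM. GAS5 had 1637 reads at 130.3 FPKM and SNHG1 had 1912 at 74.1 FPKM, so that SNHG7, SNHG8 and SNHG15 had fewer reads in their events at a higher FPKM than these hosts. Expressed as reads of the fullest event per FPKM, the values in WT dox+ were 0.155 for SNHG15, 0.222 for SNHG8, 0.27 for SNHG7, 1.37 for SNHG3, 1.53 for SNHG12, 1.75 for ZFAS1, 6.9 for SNHG5, 7.97 for SNHG6, 12.6 for GAS5 and 25.8 for SNHG1. Over 1889 genes with at least 50 FPKM in both groups and an event, the median was 23.3 and the 5th percentile 4.56. All 5 H/ACA hosts and ZFAS1 were thus among the lowest 1.85%, and SNHG15, SNHG8 and SNHG7 among the lowest 0.318%. Event length and the number of replicates behind the reads were not accounted for. Whether reads of the intronic snoRNAs were counted in the FPKM of the hosts was not tested.

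**Figure D2:**
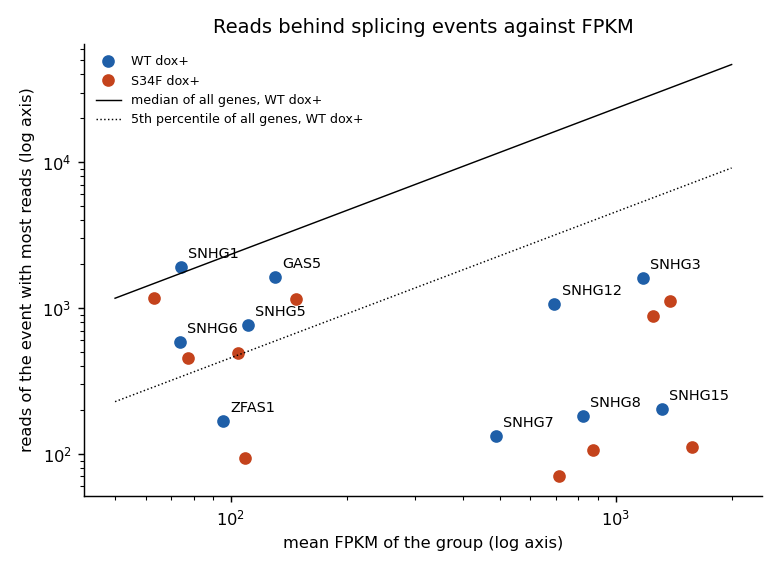
Reads of the splicing event with most reads (log axis) against mean FPKM (log axis) for each host in WT dox+ and S34F dox+; lines give the median (23.3 reads per FPKM) and the 5th percentile (4.56) over 1889 genes in WT dox+. The H/ACA hosts and ZFAS1 lie below the 5th percentile line.

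To ask how induced S34F U2AF1 bears on these genes relative to induced wild-type U2AF1, S34F dox+ was compared with WT dox+. None of the 10 hosts passed an adjusted p under 0.05 (limma on log2(FPKM + 1), Benjamini-Hochberg adjustment over 15179 genes, lowest adjusted p = 0.676), where 8 genes in all (0.0527%) did. The median log2 difference of the hosts was 0.18, against 0.03 for all genes, with 7 values above 0 and 3 below. It fell to -0.03 without S34F dox+ replicate 1 and was 0.35 without S34F dox+ replicate 2. SNHG12 had the highest value, with a log2 difference of 0.89 ± 0.33 (SE, 95% interval 0.11 to 1.67), an unadjusted p of 0.03 and an adjusted p of 0.676 by limma. It was the only host with an unadjusted p under 0.05, as were 1029 of all genes (6.78%), and its difference was 0.44 without WT dox+ replicate 1.

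The steady hosts had differences with narrow intervals. GAS5 differed by 0.19 on the log2 scale (95% interval -0.14 to 0.51), ZFAS1 by 0.18 (-0.19 to 0.55), SNHG3 by 0.25 (-0.12 to 0.61), SNHG5 by -0.08 (-0.52 to 0.35), SNHG6 by 0.05 (-0.43 to 0.53) and SNHG15 by 0.26 (-0.36 to 0.87). For these 6 genes a difference of more than 1 on the log2 scale lay outside the interval. The intervals of the other hosts were wide. SNHG7 differed by 0.39 (-3.44 to 4.21), SNHG8 by -0.93 (-5.38 to 3.51) and SNHG1 by -0.24 (-4.74 to 4.27). The parental libraries, far apart in each of these genes, enter the estimate of spread although they are not compared here. The libraries of the groups did not overlap in 3 hosts that were higher in S34F dox+ (GAS5, SNHG3 and SNHG12), as in 20.5% of all genes, and in 1 that was lower (SNHG1), as in 15.3%.

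**Figure D3:**
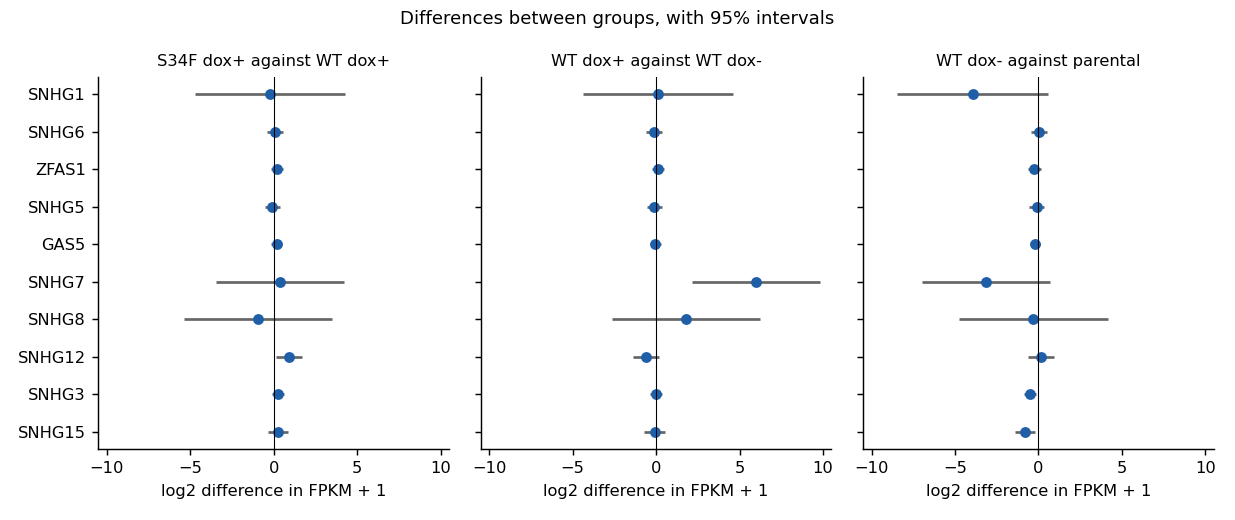
Log2 difference in FPKM + 1 (points) with 95% intervals from the limma fit (lines) for each host in 3 comparisons, each of 2 libraries against 2. Most points lie near 0 with short intervals, and SNHG1, SNHG7 and SNHG8 have intervals several log2 units wide.

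Induction of wild-type U2AF1 together with doxycycline was examined by comparing WT dox+ with WT dox-. Doxycycline itself and the induced protein change together in this comparison, so their effects cannot be told apart. No host passed the adjusted threshold, as did 2 of all genes (0.0132%). SNHG7 had a log2 difference of 6.01 ± 1.64 (SE, 95% interval 2.18 to 9.83), with an unadjusted p of 0.00707 and an adjusted p of 0.199 by limma, and it was the only host among the 2184 genes (14.4%) with an unadjusted p under 0.05. Both WT dox+ libraries were above both WT dox- libraries, and the S34F dox+ libraries were likewise above S34F dox-, but parental replicate 1 was as high as WT dox+. The gap between the parental libraries, at 564 and 6.73 FPKM, enters the estimate of spread for SNHG7 in this comparison too. The labels give the parental libraries as dox-, and the sources of the study differ on this point. SNHG7 was the single host higher without overlap, as were 28.9% of all genes, and 0 hosts were lower without overlap, as were 20.8%. SNHG12 differed by -0.61 (95% interval -1.39 to 0.17), with -0.15 without WT dox+ replicate 1 and -1.06 without WT dox+ replicate 2. SNHG1 differed by 0.10 (-4.41 to 4.61). SNHG8 differed by 1.80 (-2.65 to 6.24), and its value turned to -0.49 without WT dox- replicate 1 and was 4.08 without WT dox- replicate 2. The median of the 10 hosts was -0.04 and that of all genes 0.05.

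The response to doxycycline in the S34F line was compared with that in the WT line as a difference of differences, with 1 library of S34F dox-, which is assumed to vary like the other groups. Values ran from -3.08 for SNHG8 (95% interval -10.1 to 3.94) to 0.67 for SNHG12 (-0.56 to 1.9). Single libraries moved both: SNHG8 was at -0.80 without WT dox- replicate 1 and at -5.36 without WT dox- replicate 2, and SNHG12 at 0.21 without WT dox+ replicate 1 and at 1.12 without WT dox+ replicate 2. No host passed the adjusted threshold, as did 4 of all genes (0.0264%), and none had an unadjusted p under 0.05, as did 519 genes (3.42%). The median of the hosts was 0.02 and that of all genes 0.03. For SNHG7 the values of each line, given side by side, were 6.01 on the log2 scale for WT dox+ over WT dox- and 6.22 for S34F dox+ over S34F dox-, the latter with no test of its own. This comparison shares its dox+ and WT dox- libraries with those above.

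WT dox- was compared with the parental line to measure the difference that goes with transduction and subcloning. No host passed the adjusted threshold, as did 15 of all genes (0.0988%). SNHG3 had a log2 difference of -0.51 ± 0.16 (SE, 95% interval -0.88 to -0.14), with an unadjusted p of 0.0128 and an adjusted p of 0.28 by limma. SNHG15 had one of -0.80 ± 0.26 (SE, 95% interval -1.42 to -0.19), with an unadjusted p of 0.0172 and an adjusted p of 0.294. These were the 2 hosts with an unadjusted p under 0.05, as were 1872 of all genes (12.3%). The median of the 10 hosts was -0.28 and that of all genes 0. The median of the hosts was -0.14 without WT dox- replicate 1 and -0.51 without WT dox- replicate 2, and the value of SNHG15 was -0.52 without WT dox- replicate 1.

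In 4 hosts (SNHG1, SNHG3, SNHG15 and ZFAS1) both WT dox- libraries were below both parental libraries, as in 22.4% of all genes, and in 0 hosts they were above, as in 21.6%. ZFAS1 differed by -0.24 (95% interval -0.61 to 0.13). SNHG1 differed by -3.95 (-8.46 to 0.56), and the value was -0.19 without parental replicate 1, so that the size of this difference belonged to that library. SNHG7 differed by -3.15 (-6.97 to 0.68), and SNHG8 by -0.31 (-4.75 to 4.14), with 1.98 and -2.59 at the ends of its range with 1 library left out. Without parental replicate 2, SNHG1 and SNHG7 passed the adjusted threshold, because parental replicate 1, in which both were high, then stood alone.

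Genes that act on the same RNAs were read from lists of other snoRNA hosts, factors of nonsense-mediated decay, mRNAs known to be degraded by that pathway, and proteins that bind or assemble snoRNAs. None of the 12 other noncoding hosts, 44 protein-coding hosts, 19 decay factors, 10 decay target mRNAs and 19 snoRNP proteins tested was called in any of the 4 comparisons. In S34F dox+ against WT dox+ their median log2 differences were 0.02, 0.01, -0.01, 0.15 and -0.07, against 0.18 for the 10 hosts. The number of genes with an unadjusted p under 0.05 by limma was 0, 1, 1, 1 and 0 in the same order. In WT dox+ against WT dox- these numbers were 2, 9, 5, 1 and 7, where 14.4% of all genes were under that value. There the medians of the lists were -0.15, -0.13, -0.12, -0.13 and -0.18, against 0.05 for all genes. Values were lower in WT dox+ for 7, 37, 12, 6 and 17 genes of these lists. The share of all genes that were lower there is not given, so these counts cannot be weighed against it. MAGOH, a core protein of the exon junction complex, was at 73.1 and 65.5 FPKM in WT dox+, against 52.7 and 48.1 in S34F dox+, a log2 difference of -0.45 ± 0.15 (SE) with an adjusted p of 0.623 by limma. SMG1, the kinase that phosphorylates UPF1, was at 33.7 and 33.5 FPKM in WT dox+, against 36.1 and 48.5 in S34F dox+, a difference of 0.31.

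Among decay target mRNAs, ATF3 differed by 0.55 and GABARAPL1 by 0.47 on the log2 scale between S34F dox+ and WT dox+. GABARAPL1 was at 4.6 and 3.98 FPKM in WT dox+, against 6.46 and 6.2 in S34F dox+, without overlap, at an adjusted p of 0.755 by limma. Of the snoRNP proteins, AQR, an intron-binding helicase, differed by -0.34 and PIH1D1, a subunit of the assembly complex, by -0.33. Among the other hosts, EPB41L4A-AS1 differed by 0.82, SNHG9 by 0.20, CWF19L1 by -0.50 and RPL4, a ribosomal protein gene, by -0.27, all with adjusted p of at least 0.669 by limma. RPL4 and SMG1 have near-identical copies in the genome, so their values are uncertain.

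For splicing, the tables give percent spliced in (PSI, for a skipped exon the estimated fraction of transcripts that include it) once for mutant and once for wild-type. The reads behind each are given, without replicates. Which value belongs to which side was read from the order of the names, mutant first. The sides are called S34F dox+ and WT dox+ here on the assumption that they are the induced lines. No error can be attached to a PSI difference, so events were described by size: a difference of at least 0.10 with at least 10 reads in each condition. The hosts had 86 events, of which 85 had the reads. Of these, 13 (15.3%) passed the size threshold, 3 with higher and 10 with lower PSI in S34F dox+, against 25119 of 79960 events over all genes (31.4%). With at least 100 reads in each condition, 6 of 65 host events (9.23%) and 13698 of 56570 events over all genes (24.2%) passed. The median absolute difference was 0.04 for the hosts and 0.05 over all events. Events of one gene often share exons and reads and are not independent.

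Skipped exons made up most of the events past the threshold. Of 29 skipped exons in the hosts, 9 passed (31%), 8 with lower inclusion in S34F dox+ and 1 with higher. Over all genes, 30.3% of skipped exons passed, and 5637 of 39192 (14.4%) passed with lower inclusion in S34F dox+. The 8 came from SNHG1 (2), SNHG15 (3), ZFAS1 (1), SNHG5 (1) and GAS5 (1), so that several share a gene and splice sites.

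Coordinates of events are those of the deposited tables, for which the labels of these libraries name the build GRCh37. Each event is named by the intron next to the alternative exon, the first listed form. The largest difference was in SNHG1, at chr11:62622023-62622605 (- strand), where PSI was 0.32 in S34F dox+ (253 reads) and 0.66 in WT dox+ (406 reads). An alternative 3' splice site entry of SNHG1 lists the same pair of junctions, to 62622023 and to 62621536. There PSI was higher in S34F dox+, at 0.79 (292 reads) against 0.7 in WT dox+ (483 reads), below the size threshold. The direction for this exon thus differed between the entries. A second exon of SNHG1, joined at chr11:62622938-62623337, had a PSI of 0.26 in S34F dox+ (368 reads) and 0.39 in WT dox+ (578 reads). ZFAS1, at chr20:47897107-47897440 (+ strand), had a PSI of 0.22 in S34F dox+ (93 reads) and 0.53 in WT dox+ (142 reads). In the skipped-exon entries all 3 exons were thus listed as included less often with S34F, and the ZFAS1 event rested on the fewest reads.

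SNHG15 had 3 skipped-exon events past the threshold on the - strand of chromosome 7, and all 3 shared the splice donor at 45026124. The exon joined at chr7:45025696-45026124 was scored against skipping to 45023645, with a PSI of 0.11 in S34F dox+ (80 reads) and 0.4 in WT dox+ (135 reads). Scored against skipping to 45024025, the same exon had a PSI of 0.24 in S34F dox+ (98 reads) and 0.38 in WT dox+ (166 reads). The exon joined at chr7:45024025-45026124 had a PSI of 0.63 in S34F dox+ (56 reads) and 0.75 in WT dox+ (98 reads). The same downstream exon entered from 45025620 stood at 0.89 and 0.94, below the size threshold. These entries share reads, so the lower inclusion in them is in part a single measurement.

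In SNHG5, the exon joined at chr6:86386909-86387142 (- strand) had a PSI of 0.66 in S34F dox+ (95 reads) and 0.84 in WT dox+ (131 reads). GAS5 had 1 event past the threshold of 22, the exon joined at chr1:173833640-173833813, at 0.05 in S34F dox+ (333 reads) and 0.16 in WT dox+ (468 reads). The nearly identical exon of GAS5 whose acceptor lies 4 bases away, at 173833644, was at 0.94 and 0.97. ZFAS1 had the only skipped exon past the threshold in the other direction, at chr20:47895745-47897022, with a PSI of 0.93 in S34F dox+ (87 reads) and 0.81 in WT dox+ (117 reads).

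**Figure D4:**
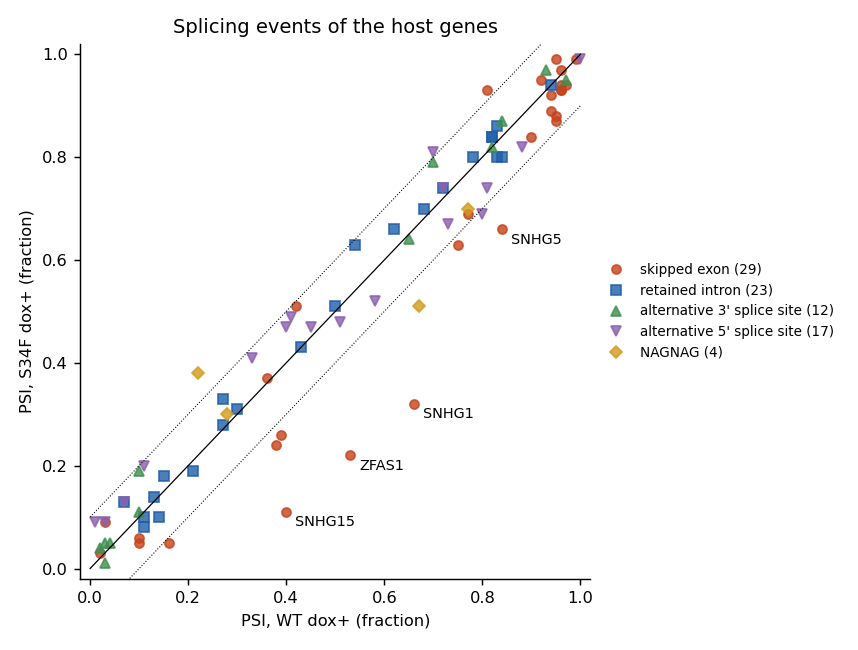
PSI in S34F dox+ against PSI in WT dox+ (fractions) for the 85 host events with at least 10 reads in each condition, by type of event; the line marks equal PSI and the dotted lines a difference of 0.10. The points far below the lower dotted line are skipped exons of SNHG1, ZFAS1, SNHG15 and SNHG5, and the 23 retained introns lie between the lines.

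SNHG1 had both of the tandem acceptor (NAGNAG) events past the threshold, out of 4 in the hosts, where 38.4% of NAGNAG events over all genes passed. They score the same pair of acceptors, at 62621536 and 62621533, from different donors. Joined to the donor at 62621991, PSI was 0.38 in S34F dox+ (1105 reads) and 0.22 in WT dox+ (1754 reads). Joined to the donor at 62622605, it was 0.51 in S34F dox+ (250 reads) and 0.67 in WT dox+ (393 reads). The difference was thus 0.16 up from the nearer donor and 0.16 down from the farther one. The tandem acceptors of GAS5 stood at 0.7 in S34F dox+ and 0.77 in WT dox+, and those of SNHG3 at 0.3 and 0.28.

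Retained introns of the hosts differed little. None of 23 passed the threshold, against 1566 of 5134 over all genes (30.5%), and their median absolute difference was 0.02, against 0.05. The 10 retained-intron events of GAS5, backed by 398 to 1160 reads in S34F dox+ and 542 to 1637 in WT dox+, differed by at most 0.04. SNHG1 had the largest difference of the 23, at chr11:62621536-62621991, with 0.63 in S34F dox+ (1180 reads) and 0.54 in WT dox+ (1912 reads). Which of the forms the fraction scores for an intron is not given, so no direction of retention is stated.

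None of 12 alternative 3' splice sites passed the threshold, against 30.9% over all genes, and 2 of 17 alternative 5' splice sites did, against 27.5%. These were in ZFAS1, at chr20:47897111-47897440, with 0.69 in S34F dox+ (63 reads) and 0.8 in WT dox+ (97 reads), and in SNHG1, where the second of 3 forms of an event at 62620153 was at 0.81 in S34F dox+ (1107 reads) and 0.7 in WT dox+ (1759 reads). SNHG3, SNHG6, SNHG7, SNHG8 and SNHG12 had no event past the threshold among 23 events. SNHG12, the only host with an unadjusted p under 0.05 in S34F dox+ against WT dox+, had 8 events with 345 to 888 reads in S34F dox+, and the largest difference among them was 0.08. Its exon joined at chr1:28907741-28908102 was included at 0.95 and 0.92. The fullest events of the other hosts without a difference were an exon of SNHG6 (0.69 in S34F dox+ and 0.77 in WT dox+), an intron of SNHG7 (0.18 and 0.15) and an alternative 5' splice site of SNHG8 (0.09 and 0.03). For SNHG3 the fullest event was a rarely included exon listed under that gene (0.05 and 0.1). It is joined at chr1:28835413-28843237 and skipped to 28856370, and whether these exons belong to SNHG3 itself was not tested.

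Correlations between pairs of hosts over the 9 libraries, which share groups and normalization, ran from -0.62 for SNHG5 with SNHG7 to 0.78 for SNHG3 with SNHG15, and 30 of the 45 pairs were above 0. Among GAS5, SNHG3, SNHG5, SNHG15 and ZFAS1, grouped here after the values were seen, all 10 pairs were above 0, from 0.28 to 0.78. The mean z score of the 10 hosts was highest in parental replicate 1, at 0.71, and lowest in WT dox- replicate 1, at -0.75, which are both uninduced. The 5 genes whose log2 level was most like that mean over the 9 libraries, among 10014 genes averaging 5 FPKM or more, were GABARAP (Pearson's r = 0.957), SPG21 (0.953), LAMTOR2 (0.953), CCNY (0.940) and MMAB (0.928).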

How the data were processed

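RNA-Seq of 9 libraries was used. The authors trimmed paired-end reads from total RNA, aligned them with STAR 2.3.0 and computed FPKM and TPM per gene with RSEM 1.2.29 (versions per the labels). The deposited table holds FPKM and TPM without counts, so DESeq2, the authors' tool, could not be applied. For splicing, the authors deposited MISO results: PSI as a fraction and counts of reads per condition, for which the way replicates were combined is not given. Columns with the authors' PSI difference and Bayes factor hold their own comparison and were not used.

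Log2(FPKM + 1) of 15179 genes averaging 1 FPKM or more was fitted with limma 3.58.1 (R 4.3.3), all 5 groups together, with two-sided tests and Benjamini-Hochberg adjustment. The fit was tested on simulated data. A fold on FPKM + 1 understates changes of low genes. Where an event had several forms, the form with the largest difference was used. Figures were made with matplotlib 3.10.9.

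The members and lists were chosen with earlier results of these data known. Genes named are the 10 hosts, the 2 of each list with the largest difference in S34F dox+ against WT dox+ where none was called, and the 5 most like the hosts. Named events are those past the threshold, up to 10 by size, and the fullest event of a host; others were named after their values were seen. Alternatives covered the pseudocount, minimum FPKM, scaling, TPM, which libraries were fitted, a block for the replicate number, each library left out and the event thresholds. iCLIP data were not analysed here.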

Additional observations from a re-analysis of the deposited data

How the results depend on the processing

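The count of hosts called stayed at 0 in all 4 comparisons under every alternative but 1: without parental replicate 2, 2 hosts were called in WT dox- against parental, so the count with 1 library left out ranged from 0 to 2 there. In that setting SNHG1 differed by -7.71 and SNHG7 by -6.24. With 1 library left out, the median log2 difference of the hosts ranged from -0.034 to 0.35 in S34F dox+ against WT dox+, from -0.16 to 0.17 in WT dox+ against WT dox-, from -0.51 to -0.14 in WT dox- against parental and from -0.10 to 0.16 for the contrast of the responses. Quantile normalization gave 0.13 for WT dox+ against WT dox-, and the cause was not tested. Leaving out SNHG1, SNHG7 and SNHG8, an alternative chosen after seeing the data, gave medians of 0.19, -0.09, 0.05 and -0.21 for S34F dox+ against WT dox+, WT dox+ against WT dox-, the contrast of the responses and WT dox- against parental. Signs of single hosts were not stable: of 620 values of the 10 hosts under alternatives, 51 had the other sign (8 in S34F dox+ against WT dox+, 16 in WT dox+ against WT dox-, 19 for the contrast of the responses and 8 in WT dox- against parental), and 16 of 40 host results had no sign change.

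In S34F dox+ against WT dox+, SNHG6 was at -0.070 in TPM. With 1 library left out, SNHG6 ranged from -0.23 to 0.32, SNHG5 from -0.20 to 0.035, ZFAS1 from -0.010 to 0.37, SNHG15 from -0.0091 to 0.52, SNHG7 from -0.36 to 1.13 and SNHG8 from -2.88 to 1.01. In WT dox+ against WT dox-, quantile normalization gave 0.12 for SNHG15, 0.0074 for GAS5 and 0.18 for SNHG3, and TPM gave 0.019 for SNHG3. With 1 library left out, GAS5 ranged from -0.19 to 0.061, SNHG1 from -0.084 to 0.29, SNHG15 from -0.37 to 0.20, SNHG3 from -0.17 to 0.15, SNHG5 from -0.37 to 0.15, SNHG6 from -0.33 to 0.069, SNHG8 from -0.49 to 4.08 and ZFAS1 from -0.041 to 0.24.

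For the contrast of the responses, quantile normalization gave 0.041 for ZFAS1, and TPM gave -0.10 for GAS5 and -0.078 for SNHG3. With 1 library left out, GAS5 ranged from -0.072 to 0.18, SNHG1 from -0.30 to 0.070, SNHG3 from -0.088 to 0.24, SNHG6 from -0.35 to 0.20, SNHG7 from -0.53 to 0.96 and ZFAS1 from -0.21 to 0.18. In WT dox- against parental, SNHG12 ranged from -0.12 to 0.39, SNHG5 from -0.38 to 0.15, SNHG6 from -0.18 to 0.22 and SNHG8 from -2.59 to 1.98. Alternatives without a library hold fewer samples; the cause of the other changes was not tested. Host events past the threshold numbered 3 at a PSI difference of at least 0.20 and 6 with at least 100 reads in each condition, since fewer events can pass there. The share of all events past 0.20 was not computed, so the count of 3 cannot be weighed against it.

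The replicate block called 0 hosts in every comparison, with medians of 0.18, -0.04, -0.07 and -0.28 for S34F dox+ against WT dox+, WT dox+ against WT dox-, the contrast of the responses and WT dox- against parental, and turned SNHG7 to -0.85 in the contrast of the responses. Differences between the replicates correlated by -0.08 to 0.04 between groups, so no strong effect shared by replicate number was seen. This cannot show whether libraries with the same number were grown or prepared together. With 2 libraries a group and no counts, differences within the wide intervals of SNHG1, SNHG7 and SNHG8 were not detectable, and PSI without replicates carries no error. The gaps between the parental libraries widen these intervals also in comparisons that do not use the parental line.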
